A study of Homo sapiens with 6 samples.

Results

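The insulin-like growth factor (IGF) axis was followed as 10 genes: the binding-protein genes IGFBP1 to IGFBP6, the receptor genes IGF1R and INSR, and the adaptor genes IRS1 and IRS2. They were taken by symbol from the deposited table of 26364 genes, which held all 10. The cells were Ishikawa cells, an estrogen-responsive line grown from an endometrioid adenocarcinoma. They were either the unedited parental line or 1 of 2 clones in which ETV4, an ETS-family transcription factor gene, had been knocked out. After a period in medium depleted of hormones they received 0.1% DMSO or 10 nM 17β-estradiol (E2). Each line gave 1 library per treatment. The parental groups therefore had 1 library each, the knockout groups had 2 clones each (n = 2), and the parental line and its genotype cannot be told apart. The labels give the treatment time as 8 h in the protocols and as 1 h in the sample characteristics. Nothing in the labels says that a line was grown in more than 1 culture per treatment.

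IGF1 and IGF2 signal through the receptor tyrosine kinase encoded by IGF1R, and insulin through its close relative encoded by INSR. Both kinases phosphorylate the docking proteins encoded by IRS1 and IRS2, which pass the signal to PI3K and AKT. Secreted IGF-binding proteins hold the ligands outside the cell and can limit or prolong their action. In the uterus estrogen is known to act on the epithelium partly through IGF1 made by the stroma, and IGFBP1 is a product of decidualised stroma.

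The 6 libraries held 28037392 to 36829479 counts. The parental DMSO library stood apart: ribosomal protein genes took 9.47% of its counts against 5.52% to 7.18% in the others. The median length of the gene behind a count was 3440 bases there and 3760 to 4053 bases elsewhere. The parental E2 change also followed GC content across genes (Spearman's rho 0.336 over 14607 genes, which are not independent), against 0.132 in clone 1 and -0.00922 in clone 2. A trend with GC content was not limited to that library: with E2, the ratio of clone 1 to the parental line had a rho of -0.281, against -0.0449 for clone 2. The member differences over 1 on the log2 scale are given with and without the parental DMSO library. ETV4 counts were 586 and 1063 in the parental libraries and 71 to 122 in the clone libraries. All 9 markers fixed for endometrial epithelium stood above 1 CPM (counts relative to the TMM-adjusted library size) in every library. The 9 stromal markers summed to 53.1 to 90.7 CPM. COL1A1 (44.8 to 75.2 CPM), COL3A1 (1.34 to 9.73) and HAND2 (2.42 to 4.15) were above 1 CPM in every library, THY1 ranged from 0.740 to 2.33, and COL1A2, DCN, LUM, PDGFRA and PDGFRB stayed under 1 CPM. The decidual marker PRL had 0 counts throughout.

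The binding-protein genes included both the most and the least abundant members. IGFBP2, IGFBP5 and IGFBP3 were the abundant members. Compared between genes as a level per length (CPM per kilobase of exon), IGFBP2 stood between 78.4 and 119, IGFBP5 between 36.8 and 78.6 and IGFBP3 between 16.1 and 101 over the 6 libraries. IGFBP2 was above IGFBP5 within each library, while the span of IGFBP3 crossed both. A wide step separated these 3 from the receptor and adaptor genes. INSR lay between 2.68 and 5.73 CPM per kilobase, IGF1R between 0.857 and 2.39, IRS1 between 0.998 and 1.85, and IRS2 between 0.578 and 2.22. IGFBP6, at 0.791 to 2.10 CPM per kilobase, overlapped IGF1R and both adaptors, so the order among these genes did not exceed their spread. IGFBP4 lay between 0.107 and 1.49 CPM per kilobase. IGFBP1 was the lowest, with 0 to 6 counts in a library. The 0 in clone 1 with E2 allows up to 3 counts (0.103 CPM, counting error only). IGFBP1 alone did not pass the filter on low counts and was not tested, which left 9 members.

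**Figure D1:**
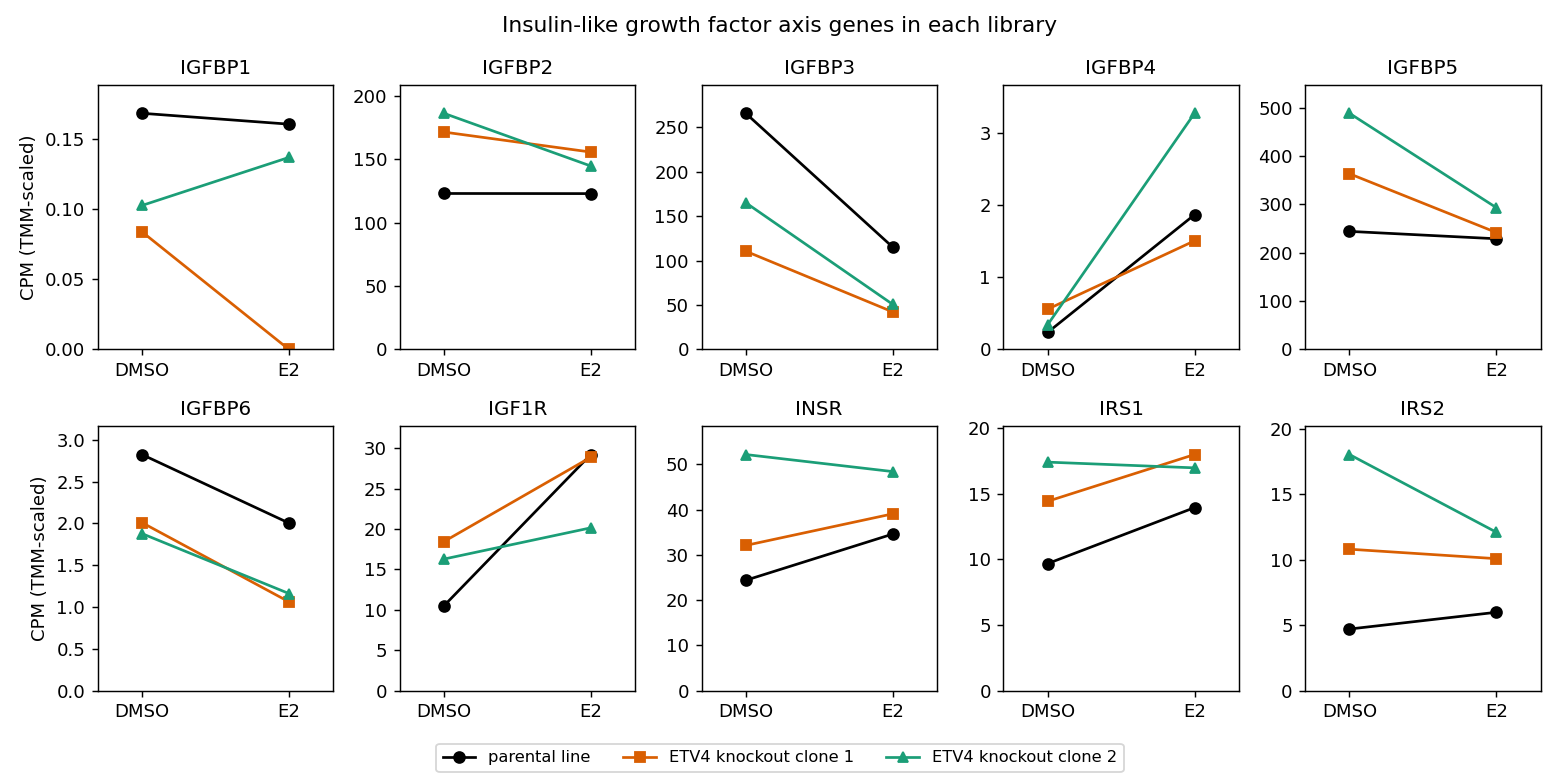
Level of each gene in TMM-scaled CPM (y axis from 0, its own scale in each panel) in DMSO and E2, with 1 point per library and a line joining the libraries of a cell line. IGFBP3 was lower and IGFBP4 higher with E2 along every line, and IRS2 was lowest in the parental line under both treatments.

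The first comparison set the 3 E2 libraries against the 3 DMSO libraries, allowing for genotype. IGFBP3, which encodes the main carrier of circulating IGFs and also restrains growth independently of them, fell. Its DMSO levels were 266 CPM for the parental line, 111 for clone 1 and 165 for clone 2. Its E2 levels, in the same order, were 115, 42.3 and 50.7 CPM. Each line had a lower level with E2 than without it, although the parental E2 library remained just above the clone 1 DMSO library, so the treatment groups overlapped. The E2 level was 0.433 of the DMSO level in parental cells (95% counting interval 0.417 to 0.450), 0.382 for clone 1 (0.358 to 0.408) and 0.307 for clone 2 (0.290 to 0.326). In bulk RNA, fewer cells of a type and less RNA per cell cannot be told apart. By the edgeR quasi-likelihood test the log2 change was -1.45 (SE 0.19), adjusted p = 0.0261 after Benjamini-Hochberg adjustment over 15611 genes. Of the members, 1 of 9 passed an adjusted p of 0.05 in this test, against 1.13% of all genes tested in either direction, 0.903% higher and 0.224% lower. IGFBP3 also passed with line as a replicate block, which joins the DMSO and E2 library of each line (edgeR adjusted p = 0.0114). The log2 change was then -1.43, and 0.743% of all genes were called lower. Without the parental DMSO library it was -1.58 with an edgeR adjusted p of 0.0716, and over all 18 alternatives the adjusted p ran from 7.40e-10 to 0.158. The call was also lost without the parental E2 library (log2 change -1.57), without the clone 2 E2 library (-1.49) and without both parental libraries (-1.58). Once either parental library is left out, the E2 coefficient comes from the clones alone. These parental omissions are thus the same estimate and do not test the parental DMSO library by itself.

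IGFBP4 was higher with E2 in each line, from a very low level. Its protein binds IGFs, is cut by the protease PAPP-A, and its gene is known as an estrogen target in breast cancer cells. DMSO libraries gave 7 counts for parental cells, 20 for clone 1 and 10 for clone 2. E2 libraries gave 70, 44 and 96 counts in that order. The E2 and DMSO libraries did not overlap (0.235 to 0.558 CPM against 1.51 to 3.28 CPM). Of all genes tested, 13.5% were higher in every E2 library than in every DMSO library. Parental cells had 7.95 times the DMSO level (95% counting interval 3.66 to 20.5), clone 1 2.70 times (1.56 to 4.84) and clone 2 9.60 times (5.0 to 20.7). Its log2 change of 2.56 (SE 0.43) had an edgeR adjusted p of 0.0537 and did not pass. With line as a replicate block it passed, at 2.48 (SE 0.41) and an edgeR adjusted p of 0.0422, beside 2.46% of all genes called in that fit and 1.72% called higher. The adjusted p ran from 1.80e-07 to 0.255 over 17 alternatives. Leaving out the parental DMSO library, which leaves the E2 coefficient to the clones alone, gave 2.37, which did not pass. It passed without the clone 1 E2 library (2.89, where 1.33% of all genes passed), without the clone 2 DMSO library (2.42, 10.9%), without clone 1 (3.10, 4.83%) and without clone 2 (2.09, 21.6%).

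IGFBP3 and IGFBP4 are shown at their promoters because they had the largest E2 changes among the members, in opposite directions. Printed are the 250 bases before each RefSeq gene start (GRCh38.p14), 5′ to 3′ on the gene's strand. IGFBP3 is at chr7:45921273-45921522 on the minus strand and IGFBP4 at chr17:40443200-40443449 on the plus strand. Capitals mark the estrogen response element half-site GGTCA, the GC box GGGCGG and the TATA box TATAAA, each on either strand.
IGFBP3: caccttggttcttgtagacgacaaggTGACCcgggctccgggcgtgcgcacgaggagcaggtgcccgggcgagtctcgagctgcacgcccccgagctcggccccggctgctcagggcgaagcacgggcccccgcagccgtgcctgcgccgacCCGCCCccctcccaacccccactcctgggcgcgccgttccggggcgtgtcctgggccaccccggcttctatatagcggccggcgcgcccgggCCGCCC
IGFBP4: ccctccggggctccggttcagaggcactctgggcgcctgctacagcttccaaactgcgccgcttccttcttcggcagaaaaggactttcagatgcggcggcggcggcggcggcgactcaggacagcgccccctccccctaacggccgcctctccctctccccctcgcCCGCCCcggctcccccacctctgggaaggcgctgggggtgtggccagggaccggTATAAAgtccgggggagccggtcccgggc
The IGFBP3 window held 1 GGTCA half-site (read on the other strand as TGACC, 224 to 220 bases before the start) and 2 GC boxes. The IGFBP4 window held no half-site, 1 GC box and a TATAAA that began 29 bases before the start. A half-site occurred in 32.6% of all 35116 RefSeq promoter windows of the same length, a GC box in 42.6% and TATAAA in 10.7%. The full palindromic element, GGTCA and TGACC with 3 bases of any kind between them, was in 0.0399% of windows and in none of the 11 windows of the 9 members found in the table. Of those windows 1 more, an upstream start of IGFBP2, held a half-site. These matches describe letters and say nothing of binding in these cells.

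The remaining binding-protein genes did not pass for E2. IGFBP5 encodes a carrier held in the extracellular matrix. Parental cells had 244 CPM without E2 and 229 with it. Clone 1 went from 364 to 242 CPM and clone 2 from 489 to 293 CPM. Both clones thus showed a lower level with E2 and the parental line a nearly level one. The log2 change over the 3 lines was -0.48 (SE 0.19), with an edgeR adjusted p of 0.232. IGFBP6, which prefers IGF2, gave 84 counts without and 75 with E2 in parental cells, 72 and 31 for clone 1, and 55 and 34 for clone 2. It was lower with E2 in each line, at a log2 change of -0.69 (SE 0.24) and an edgeR adjusted p of 0.194. IGFBP2, another carrier of both IGFs, was at 123 CPM in both parental libraries. Clone 1 went from 172 to 156 CPM and clone 2 from 186 to 145 CPM, and the log2 change was -0.17 (SE 0.12).

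Among the receptors, IGF1R was higher with E2 in each line. Parental cells went from 10.5 to 29.2 CPM, clone 1 from 18.5 to 28.9 CPM and clone 2 from 16.3 to 20.2 CPM. The 3 E2 libraries lay above the 3 DMSO libraries, with the parental line giving both the lowest and the highest value. The same held for IGFBP4, so 2 of 9 members did not overlap in that direction, beside 13.5% of all genes. None did in the lower direction (10.7% of all genes). Relative to DMSO the E2 levels of IGF1R were 2.79 times for parental cells (95% counting interval 2.46 to 3.17), 1.57 times for clone 1 (1.41 to 1.74) and 1.24 times for clone 2 (1.10 to 1.40). The log2 change was 0.82 (SE 0.25) with an edgeR adjusted p of 0.168. It was 0.48 without the parental DMSO library and 0.50 without the parental E2 library, both of which rest on the clones alone. Without clone 2 it was 1.06. INSR went from 24.4 to 34.6 CPM in parental cells, from 32.1 to 39.0 in clone 1 and from 52.1 to 48.4 in clone 2. Its direction was not shared by the lines, and the log2 change was 0.20 (SE 0.21).

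The adaptor genes showed no common E2 direction either. IRS1 went from 9.68 to 13.9 CPM in parental cells, from 14.4 to 18.0 in clone 1 and from 17.4 to 16.98 in clone 2, for a log2 change of 0.26 (SE 0.16). IRS2 went from 4.71 to 5.99 CPM in parental cells, from 10.8 to 10.1 in clone 1 and from 18.0 to 12.1 in clone 2, for a log2 change of -0.15 (SE 0.26). Read without a threshold on multiple tests, 5 of the 9 members had an unadjusted p under 0.05 for E2 in edgeR (IGFBP3, IGFBP4, IGFBP5, IGFBP6 and IGF1R), against 20.4% of all genes tested. DESeq2's Wald test called 3 members (IGFBP3, IGFBP4 and IGF1R), beside 7.14% of all genes, and limma-voom called 1, beside 1.11%. Over the alternatives the log2 change ran from -0.69 to -0.29 for IGFBP5, -0.27 to -0.07 for IGFBP2, 0.04 to 0.47 for INSR, 0.09 to 0.42 for IRS1 and -0.39 to 0.16 for IRS2. The median log2 change was -0.15 over the 9 members and -0.02 over all genes.

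**Figure D2:**
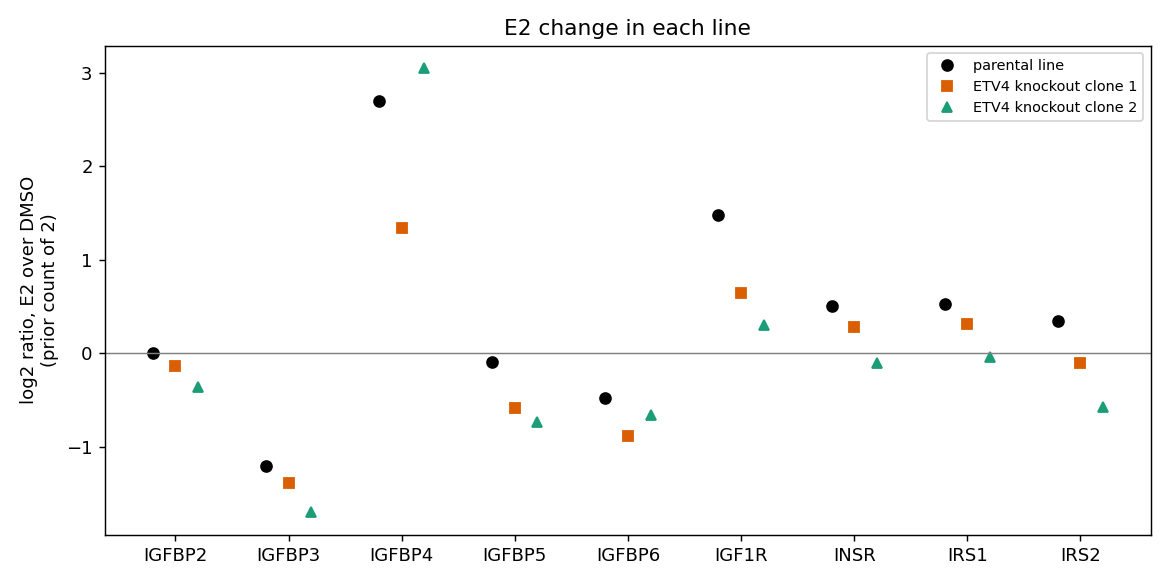
Log2 ratio of E2 to DMSO (y axis, prior count of 2) for the 9 tested genes, with 1 point per line and no replicate within a line. IGFBP3, IGFBP5 and IGFBP6 lay below 0 and IGFBP4 and IGF1R above 0 in all 3 lines. IGFBP2 was also below 0 in each, but at only -0.0011 in the parental line.

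In the clones alone, 0 of 9 members passed an adjusted p of 0.05 in edgeR without the replicate block, where 0.329% of 14881 genes did. At an unadjusted p under 0.05 there were 4 (IGFBP3, IGFBP4, IGFBP5 and IGFBP6), beside 8.70% of all genes. DESeq2 called 2, beside 2.08% of all genes, and limma-voom 0, beside 0.255%. With line as a replicate block 5 passed, beside 15.0% of all genes (8.54% higher, 6.42% lower). IGF1R (log2 change 0.47) and IGFBP4 (2.28) were higher with E2, and IGFBP3 (-1.55), IGFBP5 (-0.67) and IGFBP6 (-0.81) lower. That fit left 1 residual degree of freedom, and each gene's spread came wholly from the trend over all genes, not from its own libraries.

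Whether the E2 change differed between the clones and the parental line was tested by the interaction. None of the 9 members passed in edgeR (0% of all genes tested), and DESeq2 and limma-voom also called 0, although DESeq2 gave 6 of them, IGF1R included, no adjusted p (0.186% and 0% of all genes passed). In edgeR 1 member (IGF1R) had an unadjusted p under 0.05, beside 7.62% of all genes. The coefficient was below 0 for all 9, from -0.98 (SE 0.38) for IGF1R to -0.25 (SE 0.25) for IGFBP2, with a median of -0.45 against -0.04 over all genes. All 9 coefficients share the parental DMSO library. The share of all genes with a coefficient below 0 was not computed, so this count of signs cannot be set against it. Removing each library's trend with GC content and length moved IRS1 to 0.01 and IGF1R to -0.54. With line as a replicate block IGF1R passed, at -1.0 (SE 0.23) and an edgeR adjusted p of 5.73e-04, where 15.8% of all genes passed and 6.92% were called lower. That fit left 1 residual degree of freedom, with each gene's spread taken wholly from the trend over all genes. The parental change in it is a single pair of libraries. The adjusted p for IGF1R ran from 5.73e-04 to 0.972 over its alternatives. Without the parental DMSO library the interaction cannot be fitted.

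**Figure D3:**
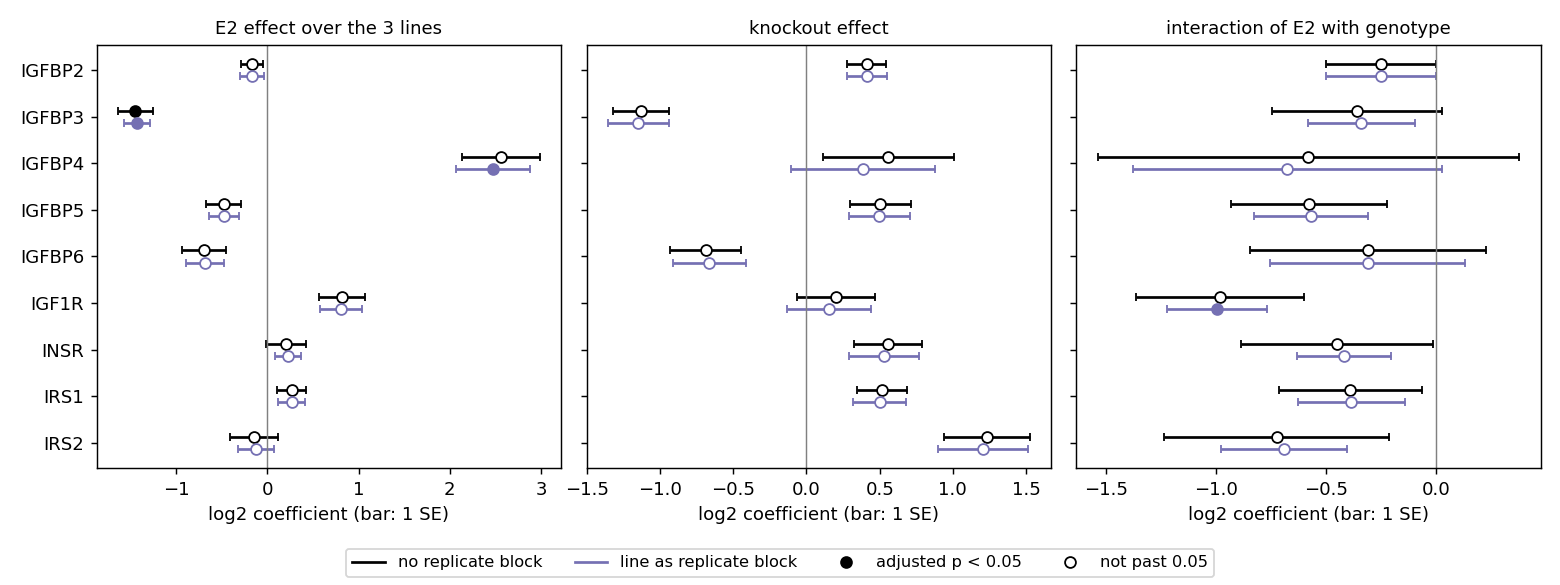
Log2 coefficients (x axis) with 1 SE for the 9 tested genes in the E2, knockout and interaction tests, without the block and with line as a replicate block (random in limma-voom for the knockout effect, fixed in edgeR otherwise). Filled points passed an adjusted p of 0.05: IGFBP3 in both E2 fits, IGFBP4 in the blocked E2 fit and IGF1R in the blocked interaction.

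The knockout clones were then compared with the parental line, with treatment in the model. Without a block, these fits count the DMSO and E2 library of a line as separate replicates. The parental side is a single line, so the SEs and p-values do not measure the spread between lines of a genotype. No member passed: 0 of 9 in edgeR, against 0.327% of all genes, with 7 of 9 at an unadjusted p under 0.05, beside 11.4% of all genes. Those 7 were IGFBP2, IGFBP3, IGFBP5, IGFBP6, INSR, IRS1 and IRS2. DESeq2 called 2 (IGFBP3 lower and IRS2 higher in the clones), beside 2.91% of all genes, and limma-voom called 0, beside 0.365%. The stromal marker COL3A1 stood at 1.34 to 3.35 CPM in the clones and at 7.93 and 9.73 CPM in the parental libraries (log2 difference -2.09, SE 0.38, edgeR adjusted p = 0.117). Of the other stromal markers tested, COL1A2 (-1.58, SE 0.57), PDGFRA (-1.16, SE 0.44), COL1A1 (-0.20, SE 0.25) and HAND2 (-0.01, SE 0.30) lay below 0. THY1 (0.75, SE 0.33) lay above 0, and none of them passed. PDGFRA had 3 to 9 counts in the clone libraries and 16 and 12 in the parental ones. It was kept by the filter on low counts only through the parental libraries, so a lower value in the clones was partly built in. The part of these markers in the member differences was not tested. A random replicate block for line left 0 members passing, where 0.295% of all genes did.

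IRS2, the docking protein that prevails downstream of the insulin receptor in liver, had the largest log2 difference of the members when all 6 libraries were used. Its counts without and with E2 were 140 and 224 for parental cells, 387 and 294 for clone 1, and 528 and 354 for clone 2. All 4 clone libraries lay above both parental ones (10.1 to 18.0 CPM against 4.71 and 5.99 CPM). In DMSO the clones averaged 14.4 ± 5.11 CPM (SD, n = 2) and with E2 11.1 ± 1.43 CPM (SD, n = 2). The ratio to the parental line was 2.30 for clone 1 and 3.83 for clone 2 in DMSO, and 1.68 and 2.02 with E2. The log2 difference was 1.23 (SE 0.29) with an edgeR adjusted p of 0.206. Without the parental DMSO library it was 0.88 (edgeR adjusted p = 0.999), and it was then smaller than that of IGFBP3. It passed with clone 1 left out (1.46, where 4.09% of all genes passed) and with clone 2 left out (0.97, 6.41%).

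The promoter of IRS2 (chr13:109786584-109786833, minus strand) is printed with that of IGF1R (chr15:98648289-98648538, plus strand), the members with the largest knockout difference over all 6 libraries and the largest interaction, in the same build and with the same capitals.
IRS2: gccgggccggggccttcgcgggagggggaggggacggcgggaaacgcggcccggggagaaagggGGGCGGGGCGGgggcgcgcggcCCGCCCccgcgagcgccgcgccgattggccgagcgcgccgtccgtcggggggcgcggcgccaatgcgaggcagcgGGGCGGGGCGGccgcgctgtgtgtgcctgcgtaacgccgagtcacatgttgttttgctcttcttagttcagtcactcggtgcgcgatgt
IGF1R: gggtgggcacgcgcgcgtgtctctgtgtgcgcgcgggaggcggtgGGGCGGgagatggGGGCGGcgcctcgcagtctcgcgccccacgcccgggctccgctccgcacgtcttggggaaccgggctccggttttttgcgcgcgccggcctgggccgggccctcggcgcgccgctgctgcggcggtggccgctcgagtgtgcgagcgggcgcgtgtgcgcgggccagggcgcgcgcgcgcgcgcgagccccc
The IRS2 window held 5 GC boxes, of which 2 pairs overlapped by 1 base, and the IGF1R window held 2. GC content was 76.4% and 81.2%, against a median of 58.0% over all windows. The ETS octamer CCGGAAGT was in none of the members' windows and in 3.42% of all windows. The short ETS core GGAA was in both, as in 92.7% of all windows.

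IGFBP3 was lower in both clones within each treatment. In DMSO the clones averaged 138 ± 38.6 CPM (SD, n = 2) against 266 CPM, and with E2 46.5 ± 5.99 CPM (SD, n = 2) against 115 CPM. Across treatments the groups overlapped, since clone 2 in DMSO stood above the parental line with E2. The log2 difference was -1.13 (SE 0.19) with an edgeR adjusted p of 0.0987. Without the parental DMSO library it was -1.32 (edgeR adjusted p = 0.443). A random replicate block for line gave -1.15, which did not pass (limma-voom adjusted p = 0.123). It passed at -1.15 (edgeR adjusted p = 0.0252, 1.61% of all genes) with line as a fixed factor. That fit, like the test without a block, treats the parental DMSO and E2 libraries as replicates of the genotype. It also passed without the clone 2 DMSO library (-1.29, 0.632% of all genes) and without clone 2 (-1.36, 6.41%). The adjusted p ran from 2.22e-09 to 0.443 over 17 alternatives. IGFBP6 lay lower in both clones within each treatment too, at a log2 difference of -0.69 (SE 0.24).

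IGFBP2 and IRS1 lay above both parental libraries in all 4 clone libraries, as IRS2 did, so 3 of 9 members did not overlap in that direction, beside 8.53% of all genes. None did in the lower direction (7.82% of all genes). The log2 differences were 0.41 (SE 0.13) for IGFBP2 and 0.52 (SE 0.17) for IRS1. IGFBP5 differed by 0.50 (SE 0.21) and INSR by 0.56 (SE 0.23), with overlapping libraries. Without the parental DMSO library IGFBP5 was at 0.22, INSR at 0.33 and IRS1 at 0.32, and without the parental E2 library IGFBP5 was at 0.80, INSR at 0.79 and IRS1 at 0.72. Without clone 2 IGFBP5 was at 0.33 and INSR at 0.28. The differences were 0.56 (SE 0.45; 0.20 to 0.93 over the alternatives) for IGFBP4 and 0.20 (SE 0.26) for IGF1R. IGF1R changed sides with treatment: in DMSO it was 1.76 and 1.55 times the parental level in clones 1 and 2, and with E2 0.988 and 0.690 times. Its log2 difference was -0.26 without the parental DMSO library. The order for INSR, IRS1, IRS2, IGF1R and IGFBP5 in DMSO rests on that 1 library, in which each of them had its lowest CPM except IGFBP5.

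**Figure D4:**
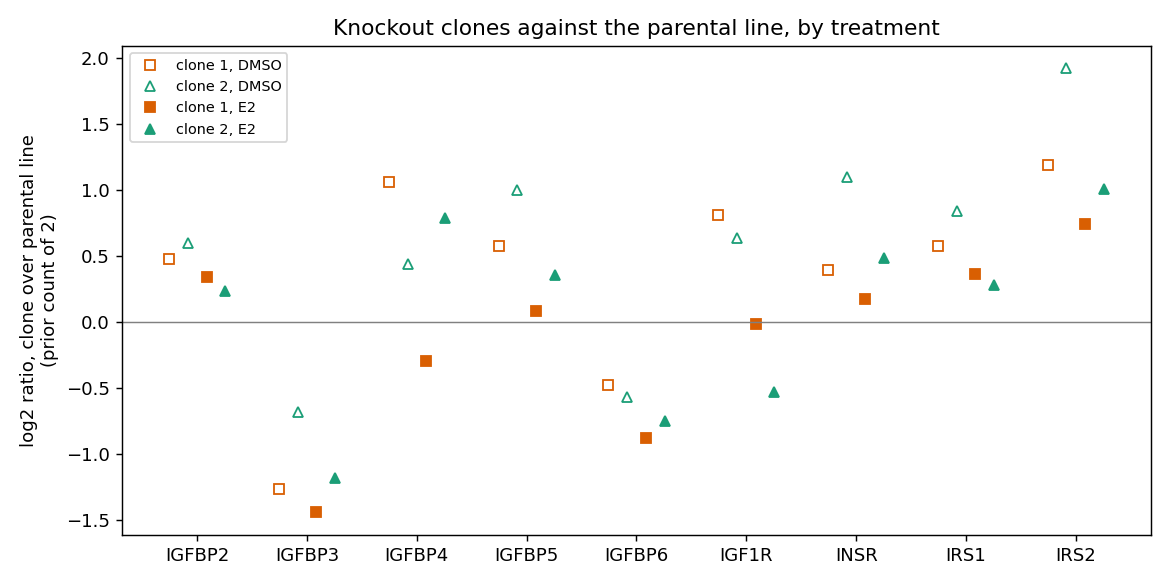
Log2 ratio of each clone to the parental line (y axis, prior count of 2) in DMSO (open) and with E2 (filled), with 1 point per clone and treatment. IGFBP2, IGFBP5, INSR, IRS1 and IRS2 lay above 0 and IGFBP3 and IGFBP6 below 0 in all 4 comparisons, and those within a treatment share 1 parental library.

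At least 2-fold differences in both clones were few. In DMSO IRS2 alone was higher in both by this measure (4.14% of all genes were), and no member was lower in both (1.13%). With E2 IGFBP3 alone was lower in both (0.935% of all genes), and none was higher in both (1.34%). Between treatments, 3 members differed at least 2-fold in the parental line (IGFBP3, IGFBP4 and IGF1R), against 16.4% of all genes, and 2 in each clone (IGFBP3 and IGFBP4), against 6.04% in clone 1 and 6.51% in clone 2. These are differences between single libraries with no replicate check.

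The clones were also set against each other, each with its DMSO and E2 library. None of the 9 members passed in edgeR, against 0.871% of all genes, and DESeq2 and limma-voom called 0, beside 2.36% and 0.858%. At an unadjusted p under 0.05 there were 2, IGFBP3 (0.43 higher in clone 2 on the log2 scale, SE 0.17) and INSR (0.51 higher, SE 0.18), beside 12.1% of all genes. Fitted on the 4 clone libraries alone, IGFBP3 (0.43), INSR (0.51) and IRS2 (0.52) passed as higher and IGF1R (-0.35) as lower in clone 2, where 18.3% of all genes passed. That fit left 1 residual degree of freedom. With either parental library left out, the other is taken up by its own line term. Those fits therefore repeat the fit on the 4 clone libraries and add no further check. Without the clone 2 E2 library the log2 difference was 0.76 for INSR and 0.84 for IRS2.

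Genes around the axis were read from 5 lists of 98 genes, of which 97 were in the table under their symbols and 86 could be tested. The ligands were close to absent. INS had 0 counts in all 6 libraries, which allows up to 3 counts in each. IGF1 had 0 to 3 counts and IGF2 0 to 9. IGF2R, which clears IGF2 and carries mannose-6-phosphate proteins, differed between the clones. Its counts without and with E2 were 2439 and 2857 for clone 1, 7505 and 7853 for clone 2, and 3649 and 9274 for parental cells. Clone 2 was higher than clone 1 by 1.70 (SE 0.24) on the log2 scale, with an edgeR adjusted p of 0.0464.

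In the list of 12 proteases and protease inhibitors that act on binding proteins, 7 could be tested. STC1, which encodes an inhibitor of PAPP-A, gave 61 and 48 counts in parental cells and 0 to 2 in the clone libraries. Its log2 difference was -5.01 (SE 0.55) with an edgeR adjusted p of 0.0271. No other list gene was called for the knockout, beside 0.327% of all genes. It passed the filter on low counts only through the parental libraries, so a difference was built in. With at least 10 counts required in every library it was not tested, and 0 list genes were called. At such counts the fitted size depends on the prior count. PAPPA itself had 0 to 5 counts in every library. PLAT (tissue plasminogen activator) was 1.23 higher (SE 0.14) in clone 2 than in clone 1, and the serine protease gene PRSS23 differed by -0.93 (SE 0.13). Their edgeR adjusted p-values were 0.0219 and 0.0465.

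For E2, 1 of the 86 genes was called higher and 2 lower, beside 0.903% and 0.224% of all genes. CISH, a SOCS-family brake on cytokine receptors, went from 4.03 to 13.4 CPM in the parental line, 4.91 to 10.8 in clone 1 and 4.20 to 12.4 in clone 2. Its log2 change was 1.48 (SE 0.18), with an edgeR adjusted p of 0.0186. The 2 lower genes were in the list of 19 FOXO factors and FOXO-induced genes. TXNIP, which restrains glucose uptake, changed by -0.92 (SE 0.12) and CITED2, a partner of CBP and p300, by -0.86 (SE 0.14), with edgeR adjusted p-values of 0.0262 and 0.0469. FOXO1 itself changed by 0.11 (SE 0.14). Within that list 4 of 19 coefficients were above 0, a count for which the share of all genes was not computed. The list median was -0.29, against -0.02 over all genes. In the list of 31 PI3K, AKT and mTOR genes, all tested, 0 passed in either direction (1.13% of all genes did) and the median was 0.14. With line as a replicate block 8 of the 86 genes passed for E2 (3 higher and 5 lower), against 2.46% of all genes (1.72% higher and 0.743% lower). Those beyond CISH, TXNIP and CITED2 were named after their values were seen: PLAT (2.20) and DEPTOR (0.85) higher, and DDIT4 (-1.05), PRSS23 (-0.94) and PIK3IP1 (-1.14) lower.

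Genes with the most similar pattern over the 6 libraries were sought for the 3 members that varied most, as the root mean square difference of centred log2 CPM over 12280 candidate genes. For IGFBP4 the nearest were PPM1J (0.32), HR (0.34) and DEGS2 (0.37). For IGFBP3 they were ITGB3 (0.25), APOBEC3B (0.33) and PRODH (0.34). For IRS2 they included TEAD1 (0.08) and DOK6 (0.11). The 6 libraries share treatments, lines and depth, so closeness over them is a description only.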

How the data were processed

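Poly(A)-selected stranded RNA-seq libraries from 6 samples (3 lines, each with DMSO and E2) were analysed from tables of gene counts. The authors deposited raw counts per gene and, in a second table, a normalized signal that equals the raw count over a size factor of 0.926 to 1.19 per library, which was not used for tests. Build hg19 and the tools HISAT2, SAMtools, Subread and DESeq2 are named, per the submitters' processing notes, with no role or version. The annotation, and whether counting used strand, were not given in the sources used here, so reads of antisense genes cannot be told apart. Columns written DMOS and ER were read as DMSO and E2.

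The 10 members, the lists and the tests were chosen with earlier results of these data known. In R 4.3.3 with edgeR 4.0.16, filterByExpr on the 4 groups kept 15611 genes (14881 for the clones alone), libraries were scaled by TMM, and the quasi-likelihood test was used with Benjamini-Hochberg adjustment over all genes kept. Tests were two-sided, and a gene was called at an adjusted p below 0.05. The models were genotype plus treatment, their interaction, treatment in the clones alone, and line plus treatment for clone 2 against clone 1. Standard errors are the size of the coefficient over the square root of F. Ratios of single libraries are of CPM, with exact binomial 95% intervals for counting error only, and log2 ratios used a prior count of 2. Exon lengths and GC content came from GENCODE 29 (14607 of 15611 tested genes matched). Alternatives were other scalings, filters, DESeq2 1.42.0, limma-voom (limma 3.58.1), the replicate block, and each library or line left out. A GC and length correction, alone and with the block, was chosen after seeing the data. The scripts were tested on simulated data.

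Clone numbers in the labels pair the DMSO and E2 library of a line: over 15611 genes, clone 1 minus clone 2 had a correlation of 0.637 between the treatments. P-values measure only the spread between these samples, which may be technical. Genes named were all members, list genes called in a test (at most 4 per list and test), the ligands, IGF2R, FOXO1, and the 3 nearest patterns of the 3 most variable members, of which 1 is not reported here. Markers of endothelium and leukocytes summed to at most 3.96 and 0.376 CPM.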

Additional observations from a re-analysis of the deposited data

Results flagged for a closer look

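IGF1R passed the test of the interaction of E2 with genotype in the fit with line as a replicate block, at -1.0 (SE 0.23, edgeR adjusted p = 5.73e-04), where 15.8% of all genes passed. That fit had 1 residual degree of freedom, and the spread of IGF1R was taken wholly from the trend over all genes, not from its own libraries. The parental arm was 1 pair of libraries. It was -0.98 without the block and did not pass there (edgeR adjusted p = 0.617), and over its alternatives the adjusted p ran from 5.73e-04 to 0.972. Log2 ratios of E2 to DMSO were 1.47 for parental cells, 0.65 for clone 1 and 0.31 for clone 2. IGF1R has a union exon length of 12235 bases, and the parental DMSO library had the lowest median gene length behind its counts. With a GC and length correction and the block the interaction was -0.55 (edgeR adjusted p = 0.0400). Beyond that correction, the part of library composition was not tested.

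IRS2 had an E2 log2 ratio of 0.34 in the parental line, while both clones lay on the other side of 0, at -0.10 in clone 1 and -0.57 in clone 2. Its interaction coefficient came to -0.72 (SE 0.51) without and -0.69 (SE 0.29) with the block, and neither passed (edgeR adjusted p = 0.663 and 0.0799). The ratio in clone 1 was within counting error of no change (95% interval 0.799 to 1.09).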

How the results depend on the processing

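Percentages are the share of all genes called in the same fit. Member calls for E2 over the 3 lines (1 in the report) numbered 2 with no filter on low counts (0.845%), 3 in DESeq2 (7.14%), 2 with the replicate block (2.46%), 2 with the GC and length correction (2.38%) and 4 with both (9.99%), and ranged from 0 to 3 when a library or line was left out (0.256% to 21.6%). List genes called for E2 (3) numbered 15, 8, 6 and 20 in DESeq2, with the block, with the correction and with both, and 0 to 30 with omissions. For the knockout, members (0) numbered 2 in DESeq2 (2.91%), 1 with line as a fixed factor (1.61%) and 0 to 2 with omissions (0.00647% to 6.41%). List genes (1) numbered 0 with at least 10 counts in every library (0.347%), 4 in DESeq2, 3 with line fixed and 0 to 13 with omissions. For the interaction (0 and 0), the block gave 1 member and 12 list genes (15.8%), and the block with the correction 1 and 8 (11.2%). Between the clones, members (0) numbered 4 on the 4 clone libraries (18.3%) and 0 to 4 with omissions (1.11% to 18.3%). List genes (3) numbered 1 by total-count scaling (0.756%), 1 with at least 10 counts (0.456%), 24 on the 4 libraries, 5 with the correction (2.14%) and 1 to 25 with omissions. In the clones alone (0 and 0), DESeq2 called 2 members and 5 list genes (2.08%), the block 5 and 24 (15.0%), the block with the correction 6 and 28 (19.9%), and omissions 0 to 2 and 0 to 4 (0% to 2.30%). At 1.5-fold in place of 2-fold, members numbered 5 in clone 1, 4 in clone 2, and 3 in both clones against the parental line under each treatment. The share of all genes past 1.5-fold was not computed, so these counts cannot be set against it.
The causes of these moves were not tested. Of 680 alternative values of the members, 596 kept their direction and side of the threshold, 4 lost and 56 gained a call, and 24 changed sign, none of them called. The replicate block changed the calls of IGFBP4 (E2), IGF1R (interaction) and the 5 members named for the clones alone, and no other member's call. With the GC and length correction the sign changed for IGF1R in the knockout (-0.0037), IRS1 in the interaction (0.011, and 0.010 with the block) and IRS1 between clones (-0.048). IGFBP6 between clones turned to 0.038 by total counts, 0.0068 with at least 10 counts, 0.0046 in DESeq2 and 0.0053 on the 4 clone libraries. With a library left out, IRS2 ranged from -0.39 to 0.16 for E2, and IGF1R from -0.26 to 0.73 for the knockout. Between clones the ranges were -0.14 to 0.15 for IGFBP2, -0.62 to 1.08 for IGFBP4, -0.15 to 0.19 for IGFBP6, -0.73 to 0.014 for IGF1R and -0.14 to 0.32 for IRS1. In the clones alone they were -0.27 to 0.45 for INSR, -0.011 to 0.28 for IRS1 and -0.72 to 0.036 for IRS2. Where an omission left an arm with 1 library, that library was assumed to vary like the others. The interaction could not be fitted without a parental library. Depth limited IGFBP1, IGFBP4, IGFBP6 and STC1, whose counts were below 100 in all 6 libraries.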
